A study of Homo sapiens with 26 samples.

Results

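Expression of 42 mitosis genes was examined in 9 lines of MDA-MB-231Luc, a luciferase-labelled form of a human triple-negative breast cancer cell line. The genes are the rows of the expression table that carry 42 listed symbols. These were chosen for their function, with earlier results of these data known, and none belongs to the complexes of the Aurora kinases themselves. All 42 were found among the 33562 rows of the table, and all passed the filter on low values that left 12589 genes for testing. They fall into 8 spindle checkpoint genes, 9 genes of the cyclin-CDK1 engine and anaphase, 7 centromere and kinetochore genes, 7 genes of chromosome structure, 4 cytokinesis genes and 7 genes of the spindle and of mitotic kinases.

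As background, a cell enters mitosis when cyclin B-bound CDK1 is activated, whereupon condensins compact the chromosomes and kinetochores tie them to spindle microtubules. The spindle checkpoint holds back CDC20, the activator of the anaphase-promoting complex, until every chromosome is attached, and then securin and the cyclins are destroyed, separase opens the cohesin rings and the cell divides. Most of these genes are transcribed together late in the cell cycle, largely through the CHR element (cell cycle genes homology region) and CCAAT boxes in their promoters, and in breast cancer their RNA is a familiar readout of proliferation. In bulk RNA, a larger share of cells in late cell cycle and more RNA per cell cannot be told apart.

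The study varied where AURKA, a mitotic kinase of centrosomes and spindle poles, sits in the cell, and it set expression beside metastasis in xenografts, which is not analysed here. Clones with AURKA cDNA make up 6 of the 9 lines. The clones WT-AURKA c1 and c2 have the cDNA labelled WT, NES-AURKA clones c1 and c2 one with a nuclear export signal, and NLS-AURKA clones c2 and c3 one with a nuclear localization signal. The 3 control lines, Empty, NES-Empty and NLS-Empty, carry the vector without AURKA. All 9 lines contained the pLUTZ vector with mRFP and a doxycycline-responsive promoter, and all were grown with doxycycline, in MEM with serum, under normoxia. The WT-AURKA and NES-AURKA clones are labelled MUT2 with the guide sgAURKA2, the NLS-AURKA clones MUT1 with the guide sgAURKA1, and the control lines sgCon. The clones were at passages 32 to 35 and the control lines at passages 19 to 20. Guide, passage and single-clone origin therefore cannot be told apart from the AURKA cDNA, and the guide and cDNA label cannot be told apart from the nuclear signal. WT-AURKA c2 had 2 libraries and every other line had 3. Separate cultures are not stated for libraries of the same line. In fits to libraries, p-values therefore measure only the spread between libraries of the same line, which may be technical. AURKA against control lines and contrasts of constructs were fitted to line means. Their p-values measure the spread between means of lines in the same group.

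By their titles, 8 libraries carry the letters A to H, 1 for each line except WT-AURKA c2, and 18 carry I to Z. These letter sets stood apart. Estimated depth was 17.8 to 21.4 M reads in the A to H libraries and 12.9 to 17.8 M in the I to Z libraries (M, 1e6 reads), so precision is limited mainly for genes near 1 RPKM (reads scaled to gene length and sequencing depth). The nuclear RNA MALAT1 lay between 174.6 and 561 RPKM in A to H, against 6.11 to 33.5 RPKM in I to Z. ESR1 and PGR, the hormone receptor genes that triple-negative cells lack, reached at most 0.022 and 0.012 RPKM in any library, while CD44, a surface protein of mesenchymal-like breast cancer cells, was at 32.2 to 69.4 RPKM. ERBB2, the other receptor gene listed as low in such cells, was present in every library, at 2.245 to 5.06 RPKM. Markers of leukocytes, endothelium and hepatocytes stayed at or under 1.23 RPKM, that value being PECAM1. Library D, of WT-AURKA c1, had 84.1 RPKM of AURKA, against 14.1 and 12.8 RPKM in libraries O and P of the same clone. Library A, of NES-AURKA c2, had 36.7 RPKM of AURKA, against 15.5 and 21.5 RPKM in libraries U and V. Over 1000 genes, A was about as close to NES-AURKA c1 as to its own clone, with correlations of 0.27 and 0.26, and H, of NLS-AURKA c2, was closer to NLS-AURKA c3 (0.85) than to its own clone (0.79). Library C was equally close to NLS-Empty and to its own line NES-Empty (0.84 each), and the other 5 A to H libraries were closest to their own line (0.67 to 0.88). Library W, of NLS-AURKA c2, had 104.6 RPKM of AURKA, against 38.4 RPKM in library X and 56.5 RPKM in library H of that clone. AURKA reads combine the endogenous gene and the cDNA, so its level gives no check of the labels. In the I to Z libraries AURKA was at 57.1 to 68.95 RPKM in control lines and 12.7 to 14.3 RPKM in WT-AURKA clones. It was at 15.5 to 36.95 RPKM in NES-AURKA clones and 38.4 to 40.3 RPKM in NLS-AURKA libraries X, Y and Z. In A to H, control lines had 34.05 to 51.75 RPKM, against 22.55 RPKM in F and 76.5 RPKM in B. Results that rest on D, A or W are given with and without them.

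Promoters of 37 of the 42 genes were found in the RefSeq table of build GRCh38.p14, as 250 bases before to 50 after the start of the gene. BUB3, TTK, KNTC1, UBE2C and RACGAP1 had no entry. The CHR element was searched on both strands as TTTGAA or TTTAAA, and the NF-Y box as CCAAT. A CHR match stood in 29 of the 37 promoters (78.4%), against 24.3% of all 27305 promoters in the table and 15.3% of the 8853 that belong to genes tested here. CCAAT stood in 26 of the 37 (70.3%), against 35.7% of all promoters and 37.0% of those of tested genes. Both motifs stood together in 21 of the 37 (56.8%), against 9.49% of all and 6.42% of tested genes. 4 contrasting promoters are printed 5′ to 3′ on the strand of the gene, with every match in capitals, as matches and not as shown binding sites. They are those of CCNB1, the mitotic cyclin (chr5:69166900-69167199), CDC20, the activator of the anaphase-promoting complex (chr1:43358731-43359030), MKI67, the Ki-67 chromosome surface protein (chr10:128126374-128126673, minus strand), and CKAP2, a spindle microtubule stabilizer (chr13:52455738-52456037). CCNB1 and CDC20 stood for the highly expressed members, MKI67 for those that separated the letter sets, and CKAP2 for a member called higher in both WT-AURKA clones.
CCNB1: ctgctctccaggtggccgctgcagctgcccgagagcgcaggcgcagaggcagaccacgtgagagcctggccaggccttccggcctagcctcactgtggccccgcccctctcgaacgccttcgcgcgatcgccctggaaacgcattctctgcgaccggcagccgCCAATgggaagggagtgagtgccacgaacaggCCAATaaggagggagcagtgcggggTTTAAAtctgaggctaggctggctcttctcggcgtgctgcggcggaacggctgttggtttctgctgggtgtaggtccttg
CDC20: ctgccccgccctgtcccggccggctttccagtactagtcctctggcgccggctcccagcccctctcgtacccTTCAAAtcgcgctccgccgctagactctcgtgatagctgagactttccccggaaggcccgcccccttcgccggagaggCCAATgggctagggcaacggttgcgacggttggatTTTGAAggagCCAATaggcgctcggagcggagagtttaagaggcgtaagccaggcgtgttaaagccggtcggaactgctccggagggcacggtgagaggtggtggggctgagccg
MKI67: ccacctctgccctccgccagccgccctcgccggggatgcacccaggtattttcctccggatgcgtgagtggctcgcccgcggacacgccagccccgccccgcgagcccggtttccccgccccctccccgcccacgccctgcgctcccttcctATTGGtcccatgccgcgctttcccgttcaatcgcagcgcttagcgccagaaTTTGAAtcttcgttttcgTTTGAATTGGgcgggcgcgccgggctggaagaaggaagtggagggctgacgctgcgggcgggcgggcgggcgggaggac
CKAP2: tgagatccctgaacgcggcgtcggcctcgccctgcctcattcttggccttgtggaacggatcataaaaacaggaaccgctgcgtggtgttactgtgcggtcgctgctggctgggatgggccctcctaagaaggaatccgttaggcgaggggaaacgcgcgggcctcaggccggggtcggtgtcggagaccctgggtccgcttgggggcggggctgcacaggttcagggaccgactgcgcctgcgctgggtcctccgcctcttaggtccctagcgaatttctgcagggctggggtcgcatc
A CHR match on the opposite strand reads TTCAAA, as in CDC20. The CCNB1 window holds 1 CHR match and 2 CCAAT matches, and the CDC20 window 2 of each. MKI67 has 2 CHR matches and 2 CCAAT matches read on the opposite strand as ATTGG, and 1 of these overlaps a CHR match. CKAP2 had 0 matches to either motif in this window, as did CDC25C, the phosphatase that activates CDK1, and MELK, a kinase of proliferating cells. No coordinate here belongs to the expression table, which was made on build hg19.

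RPKM is scaled to length, but the difference between letter sets followed coding length, as given below. The order of genes of unlike length therefore depends on the libraries used, and 18 of the 26 are I to Z. By the median over 26 libraries, the most abundant members were UBE2C, the ubiquitin-conjugating enzyme of the anaphase-promoting complex, at 109.8 RPKM, CCNB1 at 100.5 RPKM and TOP2A, the topoisomerase that untangles sister chromosomes, at 100.1 RPKM. The least abundant were CENPE, a kinetochore motor, at 1.38 RPKM, MKI67 at 1.76 RPKM and ESPL1, the separase that opens cohesin, at 2.56 RPKM. The order differed between letter sets. In A to H the highest medians were those of TOP2A (86.6 RPKM), UBE2C (76.5) and CCNB1 (55.1) and the lowest those of ESPL1 (2.38), CDC25C (3.40) and SPC25 (4.06), while in I to Z the highest were UBE2C (125.96 RPKM), CCNB1 (120.6) and TOP2A (100.7) and the lowest MKI67 (1.12), CENPE (1.23) and ESPL1 (2.80).

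The letter sets separated most of the members. In a fit with line as covariate, 37 of 42 members differed between A to H and I to Z libraries (limma, adjusted p under 0.05), 6 higher and 31 lower in A to H. Of all genes tested, 73.2% differed, 30.0% higher and 43.2% lower. The median difference of the 42 members was −0.60 (log2), beside −0.09 over all genes tested. The higher members were MKI67, CENPF, CENPE, ASPM, KNTC1 and SMC4, and all 3 of the cyclins CCNA2, CCNB1 and CCNB2 were among the lower ones.

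MKI67 had between 21.3 and 64.4 RPKM in the A to H libraries (median 26.7), against 0.674 to 8.15 RPKM in the I to Z libraries (median 1.12). CENPF, a large kinetochore protein, was at 28.0 to 62.7 RPKM (median 36.4) in A to H, against 2.55 to 19.2 RPKM (median 5.02) in I to Z. CENPE was at 8.504 to 21.1 RPKM (median 11.2) in A to H, against 0.772 to 3.68 RPKM (median 1.23) in I to Z. For these 3 genes the letter sets did not overlap, and the highest I to Z value was library W each time. The differences were 3.68 (SE 0.22) for MKI67, 2.60 (SE 0.18) for CENPF and 2.48 (SE 0.16) for CENPE on the log2 scale, with limma adjusted p of 1.8e-11, 8.1e-11 and 4.3e-11. ASPM, a spindle pole protein, was also higher in A to H, by 0.83, with overlapping ranges of 8.40 to 26.2 RPKM and 4.17 to 14.8 RPKM. KNTC1, of the kinetochore complex that recruits dynein, and SMC4, a condensin ATPase, rose by 0.31 and 0.30.

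Among the members that were lower in A to H, MAD2L1, the checkpoint protein that binds CDC20, had 5.77 to 16.1 RPKM (median 7.73), against 17.0 to 30.8 RPKM (median 24.1) in I to Z. It fell by 1.40 (SE 0.13, limma adjusted p = 4.6e-09), and the sets did not overlap. CDC25C was at 2.06 to 4.43 RPKM in A to H, against 4.48 to 8.52 RPKM in I to Z, again without overlap. In all, 5 of 42 members (11.9%) had letter sets that did not overlap, beside 12.4% of all genes tested. RACGAP1, the centralspindlin subunit that positions the division furrow, fell by 1.20, CCNB1 by 1.18, CDC20 by 1.16 and SPC25, a subunit of the NDC80 complex, by 1.16. The 5 members not called were BUB1B, ESPL1, SPC24, SMC2 and TOP2A. With D and A left out, 38 members were called, 4 higher and 34 lower, beside 76.7% of all genes tested (32.1% higher and 44.7% lower), and the median was −0.84. KNTC1 (0.10, limma adjusted p = 0.249) and SMC4 (0.16, adjusted p = 0.193) then lost their calls, and MKI67, CENPF, CENPE and ASPM were still called higher.

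**Figure D1:**
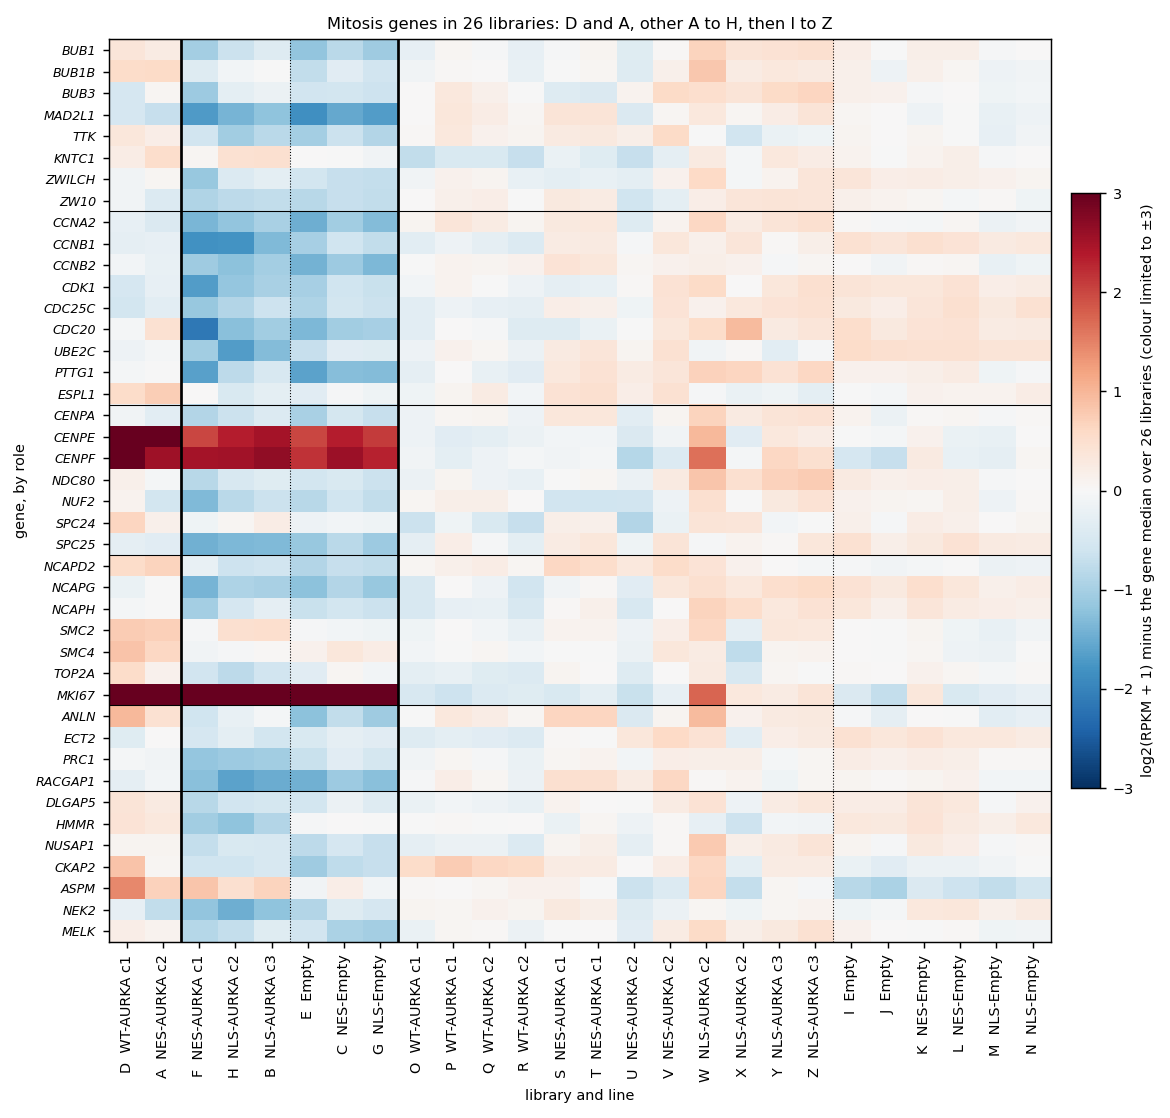
Level of the 42 genes (rows, by role) in 26 libraries (columns: D and A, the other A to H libraries, then I to Z, AURKA clones before control lines), as log2(RPKM + 1) minus the median of the gene over all libraries. MKI67, CENPF and CENPE are red in all 8 A to H libraries, and most other genes are blue in the 6 A to H libraries other than D and A.

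The difference between letter sets followed coding length, a relation looked at after the data were seen. Over the 42 members, coding length and the difference had a Spearman correlation of 0.74 (0.69 without D and A), and over the 10908 tested genes with a coding length it was 0.55 (0.51 without D and A). These points share libraries, and genes are not independent replicates. Without D and A, the 8 members under 1000 nucleotides had a median difference of −1.20, and the 4 of at least 8000 nucleotides had a median of 2.26. All tested genes in the same length classes had medians of −0.45 and 0.88. Between these ends, the 13 members of 1000 to 2000 nucleotides had a median of −1.06, beside −0.13 for all tested genes of that length. The longest member coding sequences are those of ASPM (10431 nucleotides), MKI67 (9768), CENPF (9342) and CENPE (8103). The part of length in the result was not tested, and removing a length trend from each library turned ASPM, KNTC1 and SMC4 to −0.17, −0.42 and −0.086.

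**Figure D2:**
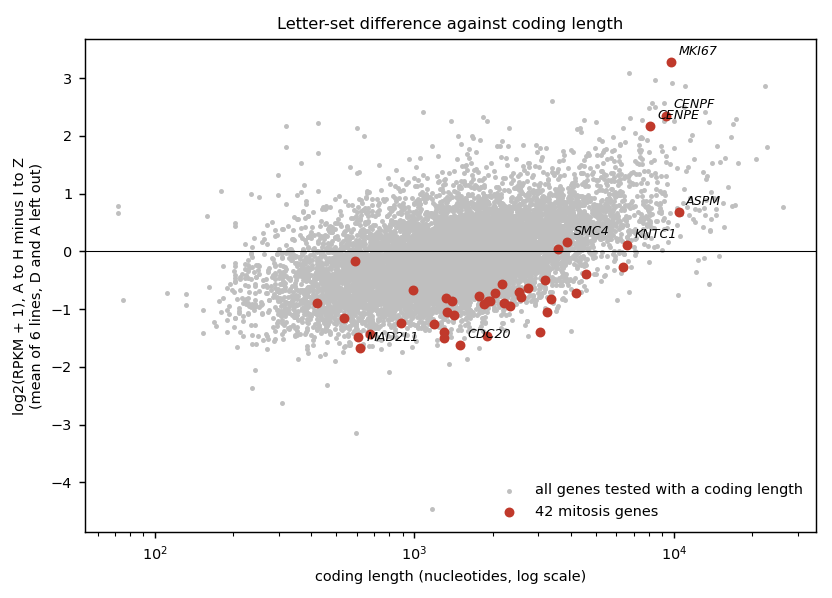
Difference between A to H and I to Z libraries (log2(RPKM + 1), mean of the 6 lines other than those of D and A) against coding length in nucleotides (log axis), for all tested genes in grey and the 42 mitosis genes in red. Of the members, MKI67, CENPF and CENPE lie highest and have coding sequences over 8000 nucleotides, and MAD2L1 and CDC20 are among the lowest.

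Libraries D and A departed from the other A to H libraries in the same direction for every member. All 42 genes were above the mean of the other 6 A to H libraries in D, and all 42 in A. The median difference was 0.90 (log2) in D, with a range of 0.04 to 1.64, and 0.77 in A, with a range of 0.10 to 1.77. Over all genes tested the medians were 0.04 in D and −0.05 in A. In both D and A, 34 of 42 members (81.0%) exceeded each of the other 6 libraries, which held for 14.6% of all genes tested. D alone exceeded them for 38 of 42 members, beside 25.8% of tested genes, and A alone for 38 of 42, beside 25.1%. With 1 library each, these are descriptions with no test.

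By role, the members above the other 6 libraries in both D and A were 6 of 8 checkpoint genes, 8 of 9 cyclin-CDK1 and anaphase genes, 5 of 7 kinetochore genes, all 7 chromosome structure genes, 3 of 4 cytokinesis genes and 5 of 7 spindle and kinase genes. ANLN, the scaffold of the cytokinetic ring, had 98.8 RPKM in D and 68.7 RPKM in A, against 20.5 to 47.8 RPKM in the other 6 libraries. CDC20 had 77.3 RPKM in D and 112.1 RPKM in A, against 17.6 to 40.1 RPKM. For both genes D and A lay clear of the other 6 libraries, and the order of D and A was opposite.

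NCAPD2, a condensin subunit, had 44.2 RPKM in D and 48.3 RPKM in A, against 15.8 to 25.6 RPKM in the other 6. BUB1, the checkpoint kinase of kinetochores, had 28.6 and 26.3 RPKM in D and A, against 9.19 to 16.8 RPKM. CKAP2 had 47.7 RPKM in D and 26.9 RPKM in A, against 11.9 to 18.3 RPKM. The largest ratios to the mean of the 6 libraries were 3.04 for ANLN and 3.03 for CKAP2 in D, and 3.36 for CDC20 and 2.51 for NCAPD2 in A, on the RPKM scale. The smallest were 1.01 for BUB3, a checkpoint scaffold, and 1.03 for ECT2, the RHOA activator of cytokinesis, in D, and 1.07 for CENPF in A.

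Set against the I to Z libraries of their own clone, D and A looked different from the other A to H libraries. The median of the 42 members was 0.19 in D and 0.08 in A, and 25 and 22 members were above their I to Z mean. In libraries E, C, G, F, H and B the same median lay between −0.99 and −0.69, and 5 to 7 members were above. With every library scaled to an equal sum, counted without the ribosomal RNA row, the medians were 0.54 in D and 0.46 in A. The other A to H libraries are not given on that scale. MKI67, CENPF and CENPE kept the high level of the A to H set in both. MKI67 had 46.1 RPKM in D, against 0.957 and 0.771 RPKM in O and P, and 64.4 RPKM in A, against 0.703 and 1.31 RPKM in U and V. NEAT1, a nuclear RNA that marked the A to H set, was lowest in A and D among those 8 libraries, at 6.02 and 9.29 RPKM, against 11.1 to 31.3 RPKM in the other 6, and its part in the result was not tested. MALAT1 did not set A and D apart, at 195.8 and 234.9 RPKM, since B had 174.6 RPKM and H 210.4 RPKM. Of 65 further mitosis genes, 55.4% exceeded the other 6 libraries in both D and A, and of 35 G1/S genes 62.9% did.

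**Figure D3:**
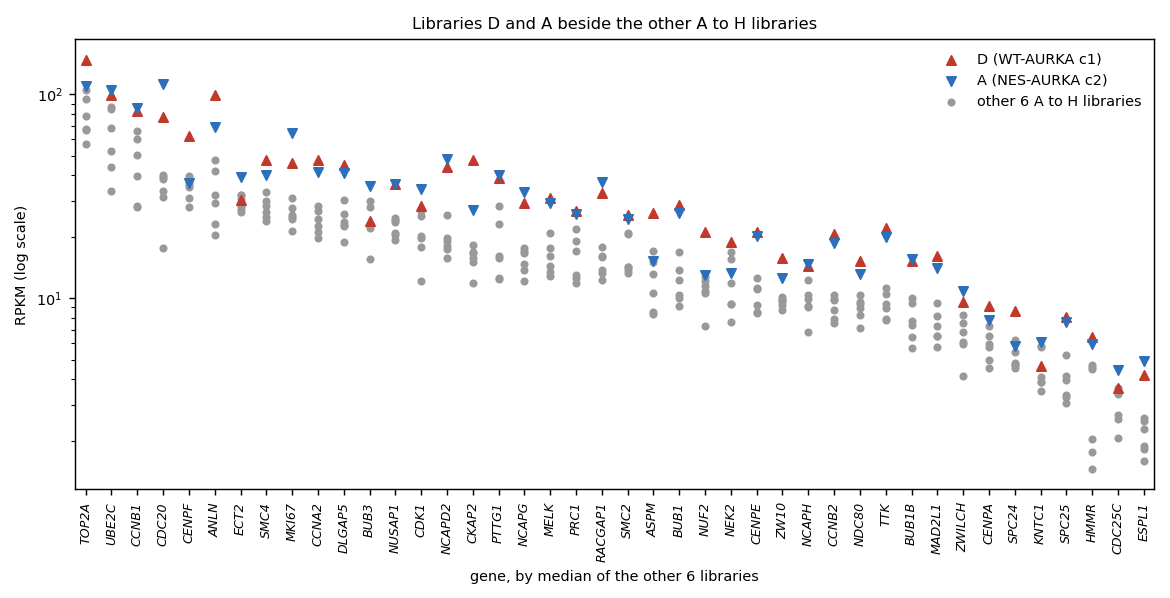
RPKM (log axis) of each of the 42 genes in library D (red), library A (blue) and the other 6 A to H libraries (grey), ordered by the median of those 6. The red and blue points stand above all grey points in 34 of 42 genes. The largest ratios to the mean of the grey points are those of CDC20 in A and of ANLN and CKAP2 in D.

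Over all 26 libraries, few members varied among the 9 lines beyond the spread within lines. CKAP2 (limma F test, adjusted p = 0.0446) and ESPL1 (adjusted p = 0.0405) were called, 2 of 42 members, beside 31.6% of all genes tested. Of 26 fits that each left out 1 library, CKAP2 lost its call in 19 (largest adjusted p = 0.109, without D) and ESPL1 in 16 (largest adjusted p = 0.0883, without A). Without both D and A, ESPL1 (adjusted p = 0.0452), KNTC1 (0.000621) and SPC24 (0.0127) were called by limma and CKAP2 was not, beside 35.2% of all genes tested. The spread within a line includes the letter set here. In the 18 I to Z libraries alone, 32 of 42 members varied among lines, beside 73.0% of all genes tested, and with a letter-set term 14 did, beside 66.2%. PTTG1, the securin that restrains separase, led the I to Z result (adjusted p = 4.8e-05). It has a near-identical relative, PTTG2, and the handling of shared reads is not given, so its values are uncertain.

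The AURKA lines were compared with the control lines on 1 value per line, 6 against 3. Members numbering 5 were higher in AURKA lines and 0 lower (limma, adjusted p under 0.05), beside 19.2% of all genes tested (8.85% higher and 10.4% lower). Of the 42 members, 13 had an unadjusted p under 0.05, and the median difference was 0.06, beside −0.02 over all genes. The higher genes were ANLN, ASPM, MAD2L1, CCNA2 and NCAPD2, each of another role.

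ANLN averaged 60.1 ± 6.67 RPKM in AURKA lines and 38.0 ± 4.23 RPKM in control lines (SD, n = 6 and 3 lines). Line means were 69.9, 54.9, 62.6, 52.4, 64.3 and 56.2 RPKM in the AURKA clones, against 36.5, 42.8 and 34.7 RPKM in the control lines. The 2 arms did not overlap, and ANLN rose by 0.65 (log2, SE 0.11, limma adjusted p = 0.00405). ASPM averaged 11.3 ± 2.03 RPKM in AURKA lines and 6.59 ± 0.895 RPKM in control lines. Its line means were 9.10 to 14.9 RPKM in AURKA clones, against 5.76 to 7.54 RPKM in control lines, with no overlap, and it rose by 0.65 (SE 0.13, adjusted p = 0.00966).

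MAD2L1 averaged 22.1 ± 2.52 RPKM in AURKA lines and 16.9 ± 1.02 RPKM in control lines, 0.43 higher (SE 0.12, limma adjusted p = 0.0351). CCNA2, the cyclin of S phase and G2, averaged 57.7 ± 5.49 RPKM in AURKA lines and 44.3 ± 2.68 RPKM in control lines, 0.38 higher (SE 0.11, adjusted p = 0.0406). NCAPD2 averaged 34.7 ± 6.11 RPKM in AURKA lines and 24.3 ± 0.964 RPKM in control lines, 0.49 higher (SE 0.15, adjusted p = 0.0439). For these 3 genes the line means were 18.3 to 25.8, 48.6 to 63.5 and 26.2 to 43.4 RPKM in AURKA lines, against 15.8 to 17.8, 41.6 to 47.0 and 23.5 to 25.4 RPKM in control lines. In each the lowest AURKA line lay above the highest control line. WT-AURKA c2, the highest AURKA line for MAD2L1 and CCNA2, has no A to H library, while each control line has 1. In A to H libraries MAD2L1, CCNA2, NCAPD2 and ANLN were lower (−1.40, −1.15, −0.45 and −0.43, log2) and ASPM was higher (0.83). The part of this imbalance in the 5 calls was not tested. CKAP2 just missed the threshold at 0.61 (SE 0.19, adjusted p = 0.0521).

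These calls depended on which libraries were used. In I to Z libraries alone, 4 members were called, beside 17.3% of all genes tested (7.37% higher and 9.92% lower), and ASPM was the 1 gene in common with the fit to all libraries. ASPM averaged 8.92 ± 1.46 RPKM in AURKA lines and 5.31 ± 0.809 RPKM in control lines (0.62, adjusted p = 0.0199), and CKAP2 33.7 ± 5.55 RPKM and 23.0 ± 1.85 RPKM (0.51, limma adjusted p = 0.0338). HMMR, a hyaluronan-binding protein of the spindle pole, was lower at 4.26 ± 0.546 RPKM in AURKA lines and 5.94 ± 0.214 RPKM in control lines (−0.41, limma adjusted p = 0.0323). UBE2C was lower at 114.8 ± 16.3 RPKM in AURKA lines and 150.8 ± 7.30 RPKM in control lines (−0.41, limma adjusted p = 0.0499). With library W also left out, limma called 0 of the 42 members, with 5 at an unadjusted p under 0.05, beside 13.1% of all genes tested. ANLN in I to Z libraries was 61.4 ± 13.0 RPKM in AURKA lines and 44.8 ± 4.51 RPKM in control lines and was not called. Without D and A, ANLN, CCNA2 and MAD2L1 were called among all libraries, beside 16.6% of all genes tested. Lines WT-AURKA c1, WT-AURKA c2 and NES-AURKA c2 then had no A to H library, while each control line kept 1. CCNA2 and MAD2L1 were lower in A to H libraries (−1.15 and −1.40, log2), and the part of this imbalance was not tested. In A to H libraries alone ASPM was called, beside 11.6%. ANLN passed in every fit that left out 1 library or line (largest adjusted p = 0.0338), while CCNA2 lost its call in 21 of 35 such fits, NCAPD2 in 19, MAD2L1 in 15 and ASPM in 3.

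Between the constructs, NLS-AURKA clones differed from NES-AURKA clones in 9 members, 4 higher and 5 lower (limma on 1 value per line, 2 lines a construct, all 9 lines sharing 1 estimate of spread), beside 33.2% of all genes tested (19.1% higher and 14.1% lower). The higher members were the kinetochore genes NUF2 and NDC80, partners in the complex that grips microtubules, with KNTC1 and the condensin subunit NCAPH. The lower members were the checkpoint kinase TTK, ESPL1, UBE2C, RACGAP1 and NCAPD2. All 9 were called in the same direction in I to Z libraries alone and also with W left out of those. In A to H libraries alone limma called 0 members, 5 had an unadjusted p under 0.05, and 7.83% of all genes tested were called. Of 35 fits that each left out 1 library or line, NDC80 lost its call in 9 and RACGAP1 in 5, the other members in 0 to 3. Leaving out line NES-AURKA c1 or c2 gave 15 or 17 called members, with the shares of all genes tested not given.

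NDC80 had 25.2, 19.3, 22.7 and 23.9 RPKM in the I to Z libraries of the NLS-AURKA clones (W, X, Y and Z), against 13.5, 14.1, 11.9 and 16.5 RPKM in those of the NES-AURKA clones (S, T, U and V). The I to Z ranges did not overlap, while in A to H the NLS-AURKA libraries H and B had 9.40 and 10.4 RPKM, against 7.17 and 13.1 RPKM in the NES-AURKA libraries F and A. Over all libraries NDC80 was 0.45 higher (SE 0.12, limma adjusted p = 0.0209), and in I to Z 0.67 higher (SE 0.10, adjusted p = 0.00137). NUF2 averaged 20.2 ± 1.09 RPKM in NLS-AURKA lines and 12.8 ± 2.52 RPKM in NES-AURKA lines (SD, n = 2 lines each), 0.58 higher (SE 0.13, limma adjusted p = 0.00905). NCAPH was 0.42 higher (SE 0.09, adjusted p = 0.00771). These kinetochore and condensin subunits were higher in NLS-AURKA lines, and another condensin subunit, NCAPD2, was lower.

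TTK had 16.9, 11.2, 14.8 and 15.5 RPKM in the I to Z libraries of the NLS-AURKA clones, against 21.0, 21.3, 19.5 and 25.8 RPKM in those of the NES-AURKA clones. No I to Z library of the NLS-AURKA clones reached the lowest of the NES-AURKA clones, and H and B, at 7.78 and 9.35 RPKM, lay under F and A, at 11.2 and 19.9 RPKM, as well. TTK fell by 0.62 over all libraries (SE 0.13, limma adjusted p = 0.00590). ESPL1 averaged 2.04 ± 0.0318 RPKM in NLS-AURKA lines and 3.72 ± 0.338 RPKM in NES-AURKA lines and fell by 0.62 (SE 0.10, adjusted p = 0.00206). UBE2C averaged 81.2 ± 2.30 RPKM in NLS-AURKA lines and 116.3 ± 10.9 RPKM in NES-AURKA lines and fell by 0.57 (adjusted p = 0.00481). RACGAP1 fell by 0.59 (adjusted p = 0.00683) and NCAPD2 by 0.53 (adjusted p = 0.00533). The 5 lower genes thus span the checkpoint, anaphase, furrow and condensin roles.

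In I to Z libraries alone 19 members differed, 14 higher and 5 lower, beside 37.5% of all genes tested (19.6% higher and 17.9% lower). The 10 added genes were all higher in NLS-AURKA lines, among them MKI67 by 1.09, CENPF by 1.03, CDC20 by 0.59 and BUB1 by 0.56 on the log2 scale. Without library W, 13 members were called, 8 higher and 5 lower, beside 31.9% of all genes tested (15.7% higher and 16.2% lower), and BUB1B, ZWILCH, CENPE, CENPF, MELK and NUSAP1 were no longer called. MKI67 had 8.15 RPKM in W and 2.41, 2.21 and 2.54 RPKM in X, Y and Z, against 0.986, 1.23, 0.703 and 1.31 RPKM in S, T, U and V. MKI67 was still 0.73 higher without W (SE 0.15, limma adjusted p = 0.00687). Leaving D and A out of all libraries gave 16 called members, 10 higher and 6 lower, beside 38.6% of all genes tested (21.5% higher and 17.1% lower). NES-AURKA c2 then had no A to H library, while both NLS-AURKA lines kept theirs.

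NLS-AURKA clones differed from WT-AURKA clones in 14 members over all libraries, 4 higher and 10 lower, beside 36.1% of all genes tested, 18.7% higher and 17.4% lower. This comparison shares the NLS-AURKA libraries with the one before, and its direction turned with the libraries used. In I to Z libraries alone 23 members differed, 21 higher and 2 lower, beside 38.5% of all genes tested, 20.4% higher and 18.1% lower. The median difference of the members in I to Z was 0.36, beside 0.01 over all genes. WT-AURKA c2 has no A to H library, so the mean of its line carries none of the values of that set, and D is the 1 A to H library of a WT-AURKA clone. In A to H alone limma called 0 members, with 19 at an unadjusted p under 0.05, beside 3.07% of all genes tested, and the member median was −0.83. The members called in the same direction in both fits numbered 6, namely KNTC1, MKI67, NCAPH and NDC80 higher and CKAP2 and TTK lower. MKI67 (−0.88), NCAPH (−0.32) and NDC80 (−0.57) were lower in A to H, where the WT-AURKA arm is D alone, assumed to vary like the other lines. Of 35 fits that each left out 1 library or line, CKAP2, KNTC1, NCAPH and TTK kept their calls in all, while NCAPD2 lost its call in 23, MAD2L1 in 22, MKI67 in 16 and NDC80 in 15. Leaving out line NLS-AURKA c2 gave 4 called members, and leaving out line NES-AURKA c1 or c2 gave 22. The shares of all genes tested are not given for these fits, so the counts are not set against other genes.

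CKAP2 had 40.3, 21.1, 30.9 and 30.9 RPKM in the I to Z libraries of the NLS-AURKA clones, against 38.7, 44.4, 40.8 and 39.2 RPKM in those of the WT-AURKA clones (O, P, Q and R). Library W reached the WT-AURKA range and X, Y and Z lay under it. CKAP2 fell by 0.71 over all libraries (SE 0.11, limma adjusted p = 0.00144) and by 0.43 in I to Z (adjusted p = 0.00928). NDC80 in the same WT-AURKA libraries was at 11.97, 14.4, 12.1 and 11.6 RPKM, all below the NLS-AURKA range given above. It was 0.41 higher in NLS-AURKA over all libraries (limma adjusted p = 0.0300) and 0.81 higher in I to Z (SE 0.10, adjusted p = 0.000532).

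By role, the members higher in the I to Z libraries of NLS-AURKA lines were BUB1, BUB1B, KNTC1 and ZWILCH of the checkpoint, CCNB1, CDC20, CDC25C and PTTG1 of the mitotic engine, CENPA, CENPE, CENPF, NDC80 and SPC24 at the kinetochore, MKI67, NCAPG, NCAPH and SMC2 of chromosome structure, ECT2 in cytokinesis, and DLGAP5, MELK and NUSAP1 at the spindle. NCAPH was 21.4 ± 2.46 RPKM in NLS-AURKA lines, against 11.5 ± 0.117 RPKM in WT-AURKA lines and 17.8 ± 0.889 RPKM in control lines. KNTC1 was 4.57 ± 0.450 RPKM in NLS-AURKA lines, against 2.27 ± 0.0307 RPKM in WT-AURKA lines and 4.09 ± 0.241 RPKM in control lines. For these 2 genes the WT-AURKA lines were the group farther from the control lines. Without W, 15 members were called, 13 higher and 2 lower, beside 33.3% of all genes tested (16.6% higher and 16.7% lower), and CENPA, CENPE, CENPF, SPC24, ZWILCH, SMC2, ECT2 and DLGAP5 were no longer called.

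The genes CCNB2, RACGAP1 and MAD2L1, called lower over all libraries, were close to even in I to Z, where CCNB2, a B-type cyclin, differed by 0.0070, RACGAP1 by 0.013 and MAD2L1 by 0.086, each slightly higher in NLS-AURKA lines. HMMR (−0.60), UBE2C (−0.50), NEK2, a centrosome kinase (−0.46), ESPL1 (−0.36) and NCAPD2 (−0.32) were likewise called lower over all libraries and not in I to Z. Without D and A, 18 members were called over all other libraries, 10 higher and 8 lower, beside 43.2% of all genes tested (22.3% higher and 20.9% lower). Neither WT-AURKA line then had an A to H library, while both NLS-AURKA lines kept theirs.

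NES-AURKA and WT-AURKA clones, which share a guide and cDNA label, differed in 2 members over all libraries, both lower, beside 4.87% of all genes tested (3.30% lower). CKAP2 averaged 27.0 ± 1.15 RPKM in NES-AURKA lines and 41.8 ± 2.54 RPKM in WT-AURKA lines and fell by 0.63 (SE 0.11, limma adjusted p = 0.0195). NUF2 averaged 12.8 ± 2.52 RPKM in NES-AURKA lines and 21.2 ± 0.301 RPKM in WT-AURKA lines and fell by 0.72 (SE 0.13, adjusted p = 0.0214). In I to Z libraries 5 members were called, beside 4.54% of all genes tested (2.03% higher and 2.51% lower), the same 2 lower and CCNB1 (0.49), PTTG1 (0.55) and RACGAP1 (0.45) higher. With W left out of the shared fit limma called 0 of these, with 12 members at an unadjusted p under 0.05, beside 1.64% of all genes tested. In A to H libraries alone it also called 0 members, with 8 at an unadjusted p under 0.05, beside 0.0% of all genes tested, and there the WT-AURKA arm is library D alone. With D left out of all libraries, 10 members were called, and the share of all genes tested in that fit is not given. Neither WT-AURKA clone then had an A to H library, while both NES-AURKA clones kept theirs. Leaving out library B, library C or line WT-AURKA c2 gave 0. CKAP2 lost its call in 6 of 35 such fits and NUF2 in 5.

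**Figure D4:**
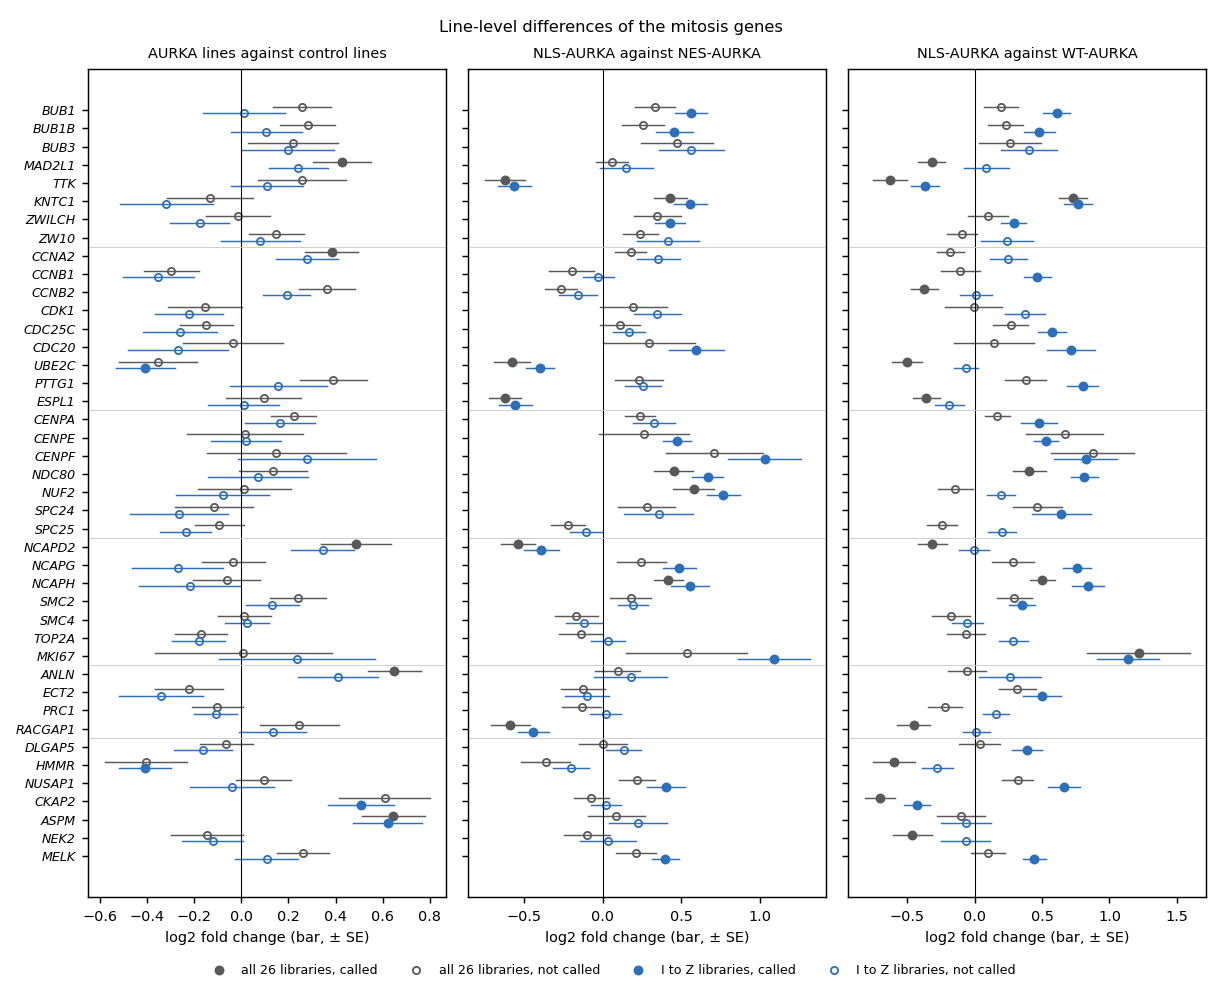
Log2 fold change with its standard error for each of the 42 genes in AURKA against control lines, NLS-AURKA against NES-AURKA lines and NLS-AURKA against WT-AURKA lines, from all 26 libraries and from the I to Z libraries, with filled points for adjusted p under 0.05. In NLS-AURKA against WT-AURKA lines most filled points lie above 0 in the I to Z fit (21 of 23) and below 0 in the fit to all libraries (10 of 14).

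Each clone was then set against the control line of its own vector, in a fit to the libraries. Over all 26 libraries, CKAP2 was higher in WT-AURKA c1 (1.26, SE 0.31, limma adjusted p = 0.00987), 1 of 42 members, beside 11.8% of all genes tested (6.78% higher), and in WT-AURKA c2 (1.14, adjusted p = 0.0465), again 1 of 42, beside 8.01% (4.42% higher). HMMR was lower in NLS-AURKA c2 (−0.86, adjusted p = 0.0283), beside 17.6% of all genes tested (8.09% lower). Of 26 fits that each left out 1 library, CKAP2 lost its call in 17 in WT-AURKA c2 (largest adjusted p = 0.258, without Q) and in 1 in WT-AURKA c1 (0.0598), and HMMR lost its call in 4 in NLS-AURKA c2 (0.150). Limma called 0 members in NES-AURKA c1 (1 at an unadjusted p under 0.05, beside 14.8% of all genes called), in NES-AURKA c2 (2, beside 9.33%) and in NLS-AURKA c3 (2, beside 15.1%).

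In the I to Z libraries, where the letter set no longer adds to the spread, the calls were more numerous. WT-AURKA c1 differed from Empty in 10 members, 2 higher and 8 lower, beside 35.8% of all genes tested (16.5% higher and 19.4% lower), and WT-AURKA c2 in 16, 2 higher and 14 lower, beside 37.7% (15.7% higher and 22.0% lower). In both WT-AURKA clones ASPM and CKAP2 were higher, and CCNB1, CDC20, CDC25C, ECT2, KNTC1, NCAPG, NCAPH and UBE2C were lower. The lower genes include the mitotic cyclin CCNB1, the CDK1-activating phosphatase CDC25C, and CDC20 and UBE2C, which work with the anaphase-promoting complex. The comparisons of both clones share the Empty libraries. With a letter-set term over all libraries, 6 members were called in c1, beside 30.9% of all genes tested, and 3 in c2, beside 24.2%, of which ASPM and CKAP2 were higher and ECT2 lower in both. ECT2 then fell by 0.46 and 0.67 (limma adjusted p = 0.0345 and 0.0106), and CCNB1 differed by −0.19 and −0.68 without a call (adjusted p = 0.669 and 0.150).

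CKAP2 had 38.7 and 44.4 RPKM in WT-AURKA c1 (O and P) and 40.8 and 39.2 RPKM in WT-AURKA c2 (Q and R), against 22.3 and 20.3 RPKM in Empty (I and J). ECT2 had 29.7, 32.0, 30.6 and 29.4 RPKM in the same clone libraries, against 54.4 and 50.1 RPKM in Empty. CCNB1 had 80.8, 90.4, 83.5 and 75.3 RPKM, against 139.5 and 129.2 RPKM in Empty. For these 3 genes all 4 clone libraries lay on 1 side of both Empty libraries. The log2 differences in c1 and c2 were 0.93 and 0.88 for CKAP2 (limma adjusted p = 0.00295 and 0.00405), −0.74 and −0.78 for ECT2 (adjusted p = 0.00484 and 0.00344), and −0.64 and −0.75 for CCNB1 (adjusted p = 0.00126 and 0.000412). Library D, with 47.7 RPKM of CKAP2, 30.4 RPKM of ECT2 and 82.9 RPKM of CCNB1, lay above library E of Empty in all 3, at 11.9, 28.4 and 50.1 RPKM.

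NES-AURKA c1 differed from NES-Empty in 12 members, 6 higher and 6 lower, beside 40.3% of all genes tested (21.6% higher and 18.7% lower), and NES-AURKA c2 in 8, 1 higher and 7 lower, beside 32.5% (13.8% higher and 18.7% lower). Both clones shared a higher NCAPD2 (0.62 and 0.48) and lower HMMR (−0.42 and −0.41), KNTC1 (−0.41 and −0.60) and NUF2 (−0.70 and −0.47). With W left out of the fit, whose spread all lines share, 18 members were called in c1, beside 54.6% of all genes tested, and 18 in c2, beside 48.4%. The clones also parted, for BUB3 had 25.96 and 25.2 RPKM in NES-AURKA c1 (S and T) and 36.8 and 51.2 RPKM in NES-AURKA c2 (U and V), against 33.2 and 34.4 RPKM in NES-Empty (K and L). With a letter-set term over all libraries BUB3 was called lower in c1 (−0.44, limma adjusted p = 0.00749) and higher in c2 (0.44, adjusted p = 0.0104), where 6 members were called in c1, beside 35.1% of all genes tested, and 3 in c2, beside 26.3%.

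NLS-AURKA c2 differed from NLS-Empty in 18 members, 16 higher and 2 lower, beside 43.5% of all genes tested (21.3% higher and 22.2% lower), and NLS-AURKA c3 in 11, 8 higher and 3 lower, beside 36.5% (17.6% higher and 18.9% lower). Higher in both were BUB1 and BUB3, CCNA2, MELK, NDC80, PTTG1 and ZW10, a partner of KNTC1, and lower in both were HMMR and UBE2C. NDC80 had 25.2 and 19.3 RPKM in NLS-AURKA c2 and 22.7 and 23.9 RPKM in NLS-AURKA c3, against 13.3 and 13.8 RPKM in NLS-Empty (M and N). BUB3 had 48.6 and 45.5 RPKM in c2 and 51.2 and 54.2 RPKM in c3, against 31.2 and 32.3 RPKM in NLS-Empty. UBE2C had 101.7 and 113.1 RPKM in c2 and 87.9 and 106.5 RPKM in c3, against 143.4 RPKM in each NLS-Empty library. For NDC80 and BUB3 all these clone libraries lay above those of NLS-Empty, and for UBE2C all lay below. With W left out, NLS-AURKA c2 has library X alone in I to Z, so no count of calls is given for it. Library X had an RPKM sum of 258766, against 212617 to 229616 in the other I to Z libraries. Its ribosomal RNA row stood at 26070 RPKM, against 1437 to 18190 RPKM in those. The part of this in the result was not tested. The calls in c3 were then 24, 21 higher and 3 lower, beside 50.7% of all genes tested (24.2% higher and 26.4% lower). Among them BUB1, BUB3, CCNB2, NDC80, PTTG1 and ZW10 were higher and HMMR lower. For these genes X lay on the same side of both NLS-Empty libraries. With a letter-set term over all libraries, 5 members were called in c2, beside 38.2% of all genes tested, and 5 in c3, beside 33.9%, of which ASPM and BUB3 were higher and UBE2C lower in both.

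**Figure D5:**
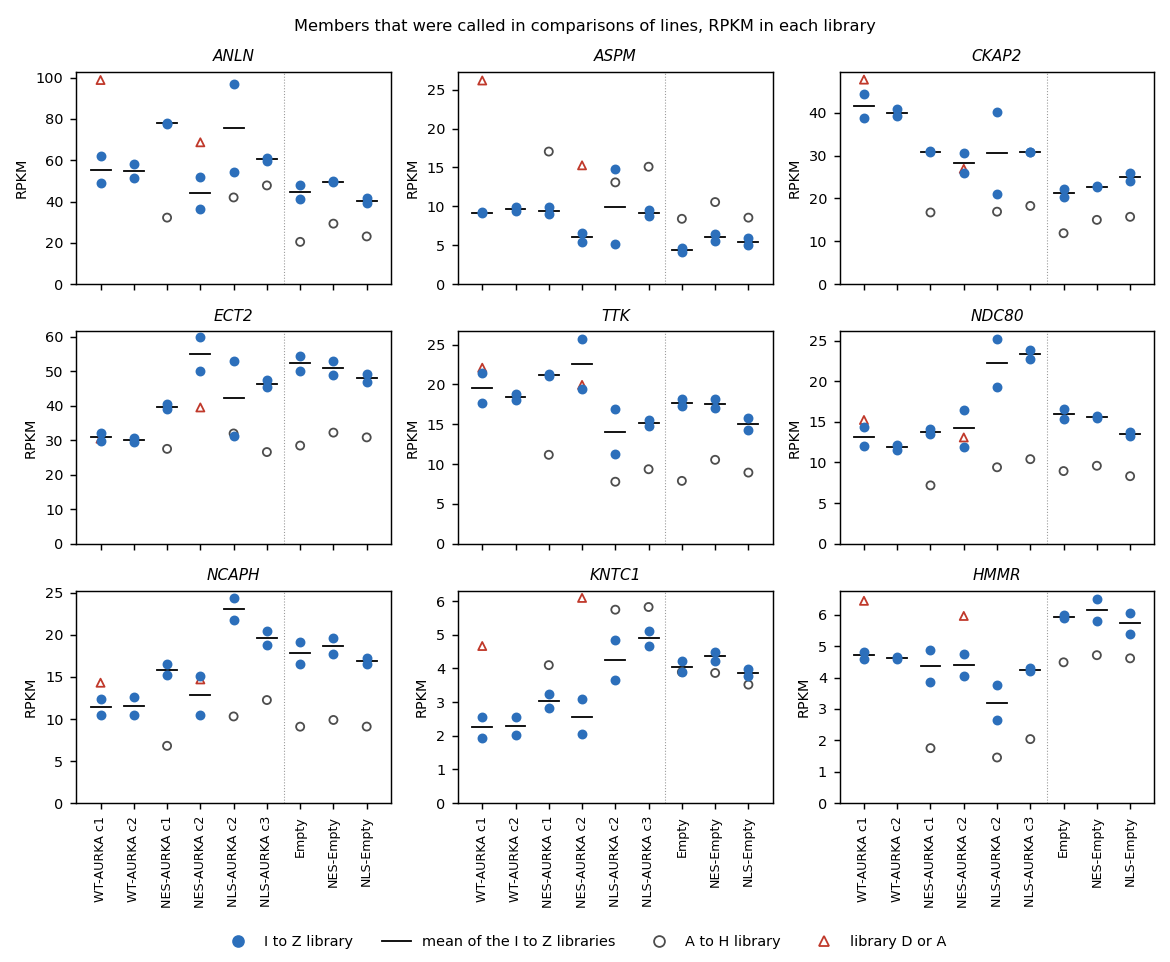
RPKM per library of 9 of the 42 genes, chosen after their values were seen, in the 6 AURKA clones and then the 3 control lines, with A to H and I to Z libraries marked apart and a bar at the mean of the I to Z libraries. By these bars CKAP2 is highest and ECT2 lowest in the WT-AURKA clones, and NDC80 is highest in the NLS-AURKA clones.

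Of 65 other mitosis genes, all tested, 13 were called in AURKA lines against control lines (10 higher, 3 lower), with CENPU (0.74), CDC26 (0.68) and CDCA3 (0.65) highest and TRIP13 (−0.63), NCAPH2 (−0.41) and ANAPC4 (−0.29) lowest on the log2 scale, beside 19.2% of all genes tested. Of 35 G1/S genes, 4 differed, 2 higher (TYMS and E2F1) and 2 lower (RFC4 and RFC3). NLS-AURKA lines differed from NES-AURKA lines in 20 of the 65 (11 higher, 9 lower) and 14 of the 35 (9 higher, 5 lower), beside 33.2% of all genes tested. They differed from WT-AURKA lines in 21 of the 65 (11 higher, 10 lower) and 15 of the 35 (12 higher, 3 lower), beside 36.1%. The letter sets differed in 52 of the 65, 6 higher and 46 lower in A to H, and in 31 of the 35, 1 higher and 30 lower, beside 73.2% of all genes tested. In both lists most of the genes called between letter sets were lower in A to H.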

How the data were processed

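Sequencing libraries used 500 ng of total RNA each and an mRNA kit, per the labels' protocols. Reads were processed with HISAT2, SAMtools and Partek on hg19, per the submitters' processing notes. Tool versions, annotation, strand setting and the handling of shared reads were not given in the sources used here. Deposited was 1 table with a column per library. Its header names no unit, and its values, scaled to gene length and depth, were read as RPKM made by the authors. Values under 0.0001 (25606 of 542686 above 0) were kept as they stood. Depth was estimated from the commonest step of low values times gene length.

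Genes with at least 1 RPKM in at least 2 libraries were kept, 12589 of 33562 rows. Values were analysed as log2(RPKM + 1), which understates changes of low genes, with limma 3.58.1 in R 4.3.3 (trend and empirical Bayes). P-values were adjusted by Benjamini-Hochberg over all tested genes, and a call is an adjusted p under 0.05. AURKA against control lines and contrasts of constructs used 1 mean per line. Clones against their control line, variation among lines and the letter sets used all 26 libraries. Coding lengths came from GENCODE 29 (86.6% of tested genes). Tables were handled in Python 3.11.15 with pandas 2.3.3, and the steps were tested on simulated data.

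The 42 genes and the other lists were chosen with earlier results of these data known. All 42 could be named, with full statistics for those called and up to 3 per role nearest to a call or highest in level, and of the other lists at most the 3 highest and 3 lowest called. The length relation, the length and equal-sum corrections and the fits without library W were chosen after the data were seen, as were the printed promoters. Equal sums were taken without the ribosomal RNA row. Alternatives covered the pseudocount, filter, rescaling, letter sets and single libraries or lines left out.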

Additional observations from a re-analysis of the deposited data

Results flagged for a closer look

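Among the 6 AURKA lines, 2 of the 42 members had a line whose mean lay apart from the others by Dixon's 95% critical value for 6 lines, and chance sets about 1 in 20 groups apart. ZWILCH, a partner of ZW10 and KNTC1 at the kinetochore, averaged 7.10 RPKM in NES-AURKA c1, against 9.98 to 11.3 RPKM in the other AURKA lines, a gap of 0.688 of the range. Its libraries F, S and T had 4.15, 8.37 and 8.79 RPKM. ZW10 averaged 12.4 RPKM in NES-AURKA c2, against 16.8 to 18.3 RPKM in the other AURKA lines, a gap of 0.741 of the range. Its libraries A, U and V had 12.5, 10.9 and 13.7 RPKM.

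For a difference between constructs in the change from their own control line, limma called 0 of 126 results (42 members in 3 contrasts of constructs), with 15 at an unadjusted p under 0.05, in 8 distinct members, and a smallest adjusted p of 0.064.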

How the results depend on the processing

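Counts in this section are of the 42 members and show how calls moved with the setting. Shares of all genes tested are mostly not repeated here, and a count without its share is not a result about the members. AURKA against control lines (5 calls) gave 2 with no filter on low values, 3 without D and A, 1 in A to H libraries, 2 without W, and 0 in I to Z libraries without W. NLS-AURKA against NES-AURKA (9) gave 16 without D and A, 19 in I to Z and 0 in A to H. NLS-AURKA against WT-AURKA (14) gave 6 with no filter, 23 in I to Z and 0 in A to H. NES-AURKA against WT-AURKA (2) gave 1 with no filter, 5 in I to Z, 0 in A to H, 1 without W and 0 in I to Z without W. Against matched controls, WT-AURKA c1 (1) gave 2 without D and A, 10 in I to Z, 6 with a letter-set term, 2 with the length trend removed and 15 in I to Z without W. WT-AURKA c2 (1) gave 0, 2, 16, 3, 2 and 21 with no filter and then those same settings. NES-AURKA c1 (0) gave 12 in I to Z, 6 with the letter-set term, 1 with the length trend removed and 18 in I to Z without W. NES-AURKA c2 (0) gave 2 without D and A, 8, 3, 1 with equal library sums and 18. NLS-AURKA c2 (1) gave 0 with no filter, 18, 5, and 0 when a log2 difference of 1 was also needed. NLS-AURKA c3 (0) gave 1, 11, 5, 1 with equal sums, 2 with the length trend removed, and 24. Variation among lines (2) gave 0 with no filter, and 32 in I to Z, beside 73.0% of all genes tested. It gave 14 with the letter-set term, beside 66.2%. Further counts were 5 with equal sums, 4 with the length trend removed and 38 in I to Z without W, with shares not given. The member median of D over its I to Z libraries was 0.54 and that of A 0.46 with equal sums.

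Reversed members in NLS-AURKA against WT-AURKA were, in I to Z, CCNB2 (0.0070), MAD2L1 (0.086) and RACGAP1 (0.013). In I to Z without W they were MAD2L1 (0.022) and RACGAP1 (0.033). In A to H, where the WT-AURKA arm is library D alone, they were MKI67 (−0.88), NCAPH (−0.32) and NDC80 (−0.57). Between letter sets, ASPM (−0.17), KNTC1 (−0.42) and SMC4 (−0.086) reversed with the length trend removed. The cause was not tested. Leaving out 1 library or line gave 1 to 8, 6 to 17, 4 to 22 and 0 to 10 calls in the 4 contrasts of lines, 0 to 1 in WT-AURKA c1, WT-AURKA c2 and NLS-AURKA c2, 0 to 0 in the other clones, 0 to 3 for variation among lines and 35 to 38 for the letter sets. Of 609 alternatives for called members, 494 kept direction and call, 104 lost the call and 11 reversed. No paired analysis was possible because the libraries carry unique letters and share no replicate numbers, and the letter set was fitted as a term instead. In I to Z without W, NLS-AURKA c2 has 1 library, assumed to vary like the others.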
